A study of Mus musculus with 7 samples.

Results

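Transcripts of 10 sialyltransferase genes (St3gal1, St3gal2, St3gal4, St3gal6, St6gal1, St6galnac4, St6galnac6, St8sia1, St8sia4 and St8sia6) were followed in regulatory T cells of a mouse melanoma. The genes were taken by symbol from the deposited count table of 57180 genes, which holds 20 sialyltransferase genes in all, and each symbol matched 1 row. The choice was made with the levels and differences of these same libraries known, so the members' differences between the groups are given as a description, without p-values. All 10 passed the filter on low counts. Of the 10 sialyltransferase genes that are not members, 4 passed it too, so the list is not a complete set of the detected family.

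Sialyltransferases are Golgi enzymes that move sialic acid from its activated donor, CMP-sialic acid, onto the outer ends of glycoproteins and glycolipids. They are named for the bond they make and the sugar they extend. ST3GAL enzymes add sialic acid to galactose in an alpha-2,3 bond, ST6GAL1 adds it to galactose in an alpha-2,6 bond, ST6GALNAC enzymes add it to N-acetylgalactosamine (GalNAc), and ST8SIA enzymes add it to a sialic acid that is already there. In T cells these caps mask galactose from galectins, build ligands of selectins and form ligands of Siglecs, the sialic acid-binding receptors of myeloid cells and B cells.

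The cells were regulatory T (Treg) cells, which hold other immune cells in check and owe their identity to the transcription factor FOXP3. They came from tumours of B16-F0, a transplantable mouse melanoma line, grown in Foxp3-Cre-YFP mice, and were sorted into FOXP3-high and FOXP3-low fractions. There were 3 FOXP3-high and 4 FOXP3-low libraries, and both groups share the Foxp3-Cre-YFP allele, a genotype labelled WT and the tumour line. The labels give neither the age of the mice, nor the gates of the sort, nor whether each library had its own mouse; standard errors and p-values therefore measure only the spread between these libraries, which may be technical. Library totals were 9048771 to 11202260 counts in FOXP3-high and 12177761 to 14546999 counts in FOXP3-low. Levels are CPM, counts per 1000000 of a library size normalized by TMM (trimmed mean of M values), as mean ± SD over n = 3 FOXP3-high and n = 4 FOXP3-low libraries; levels of different genes are compared only as CPM per kb of the deposited gene length. Each log2 fold change is the FOXP3-high level over the FOXP3-low level, followed by its standard error from edgeR.

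Foxp3 followed the labels, with 639 to 808 CPM in the FOXP3-high libraries and 309.7 to 397 CPM in the FOXP3-low libraries. Transcripts of other cells differed between the groups as well. All 14 macrophage and monocyte markers passed as lower in FOXP3-high, with summed levels of 230.6 to 336 CPM in FOXP3-high and 2176 to 2704 CPM in FOXP3-low. Summed neutrophil markers stood at 39.4 to 90.2 CPM in FOXP3-high and 688 to 929.6 CPM in FOXP3-low (5 of 6 tested lower; Ly6g had 0 counts in FOXP3-high), dendritic cell markers at 43.3 to 48.9 CPM in FOXP3-high and 108 to 142 CPM in FOXP3-low (7 of 7 lower). B and plasma cell markers stood at 5.57 to 7.14 CPM in FOXP3-high and 38.4 to 87.9 CPM in FOXP3-low (2 of 4 tested lower). All 9 melanoma markers passed as higher, at 3399 to 4672 CPM in FOXP3-high and 1401 to 2508 CPM in FOXP3-low. CD8 T cell markers stood at 8.91 to 12.7 CPM in FOXP3-high and 26.2 to 34.0 CPM in FOXP3-low (2 of 2 lower), and NK cell markers at 5.01 to 7.14 CPM in FOXP3-high and 11.04 to 17.5 CPM in FOXP3-low (2 of 3 tested lower). Of 17 T cell identity markers 16 passed as higher (4483 to 5197 CPM in FOXP3-high and 3137 to 3610 CPM in FOXP3-low), 5 of 6 Treg markers as higher (3739 to 4606 CPM in FOXP3-high and 2514 to 2930 CPM in FOXP3-low), and all 12 cell cycle genes as lower (1224 to 1414 CPM in FOXP3-high and 5335 to 5762 CPM in FOXP3-low). The part of these differences in the sialyltransferase values was not tested, and fewer cells of a type cannot be told apart from less RNA per cell in bulk libraries.

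In FOXP3-high libraries St8sia6, St8sia1, St6gal1, St3gal6 and St8sia4 stood higher and St3gal1, St6galnac4, St6galnac6 and St3gal4 lower, while St3gal2 was near its FOXP3-low level. Fold changes ran from 0.612 for St6galnac4 to 4.97 for St8sia6. These 9 were past an adjusted p of 0.05 in edgeR, 5 higher and 4 lower, in a comparison where 46.5% of all 15838 tested genes were past it, 21.8% as higher and 24.6% as lower. With libraries scaled to T cell identity markers the count was 1 higher and 4 lower, where 765 and 7958 of all 15838 tested genes were. The count lower was 2 with total counts, upper quartile factors or limma-voom, and 2 without any one of FOXP3-high replicates 1, 2 and 3 and FOXP3-low replicate 1. The libraries of the groups did not overlap for 7 members, 4 higher and 3 lower, against 50.7% of all tested genes, 23.9% higher and 26.8% lower. Nothing is read from these counts, since the same contrast was in view when the members were chosen. The median log2 fold change was 0.17 over the 10 members and 0.012 over all tested genes.

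**Figure D1:**
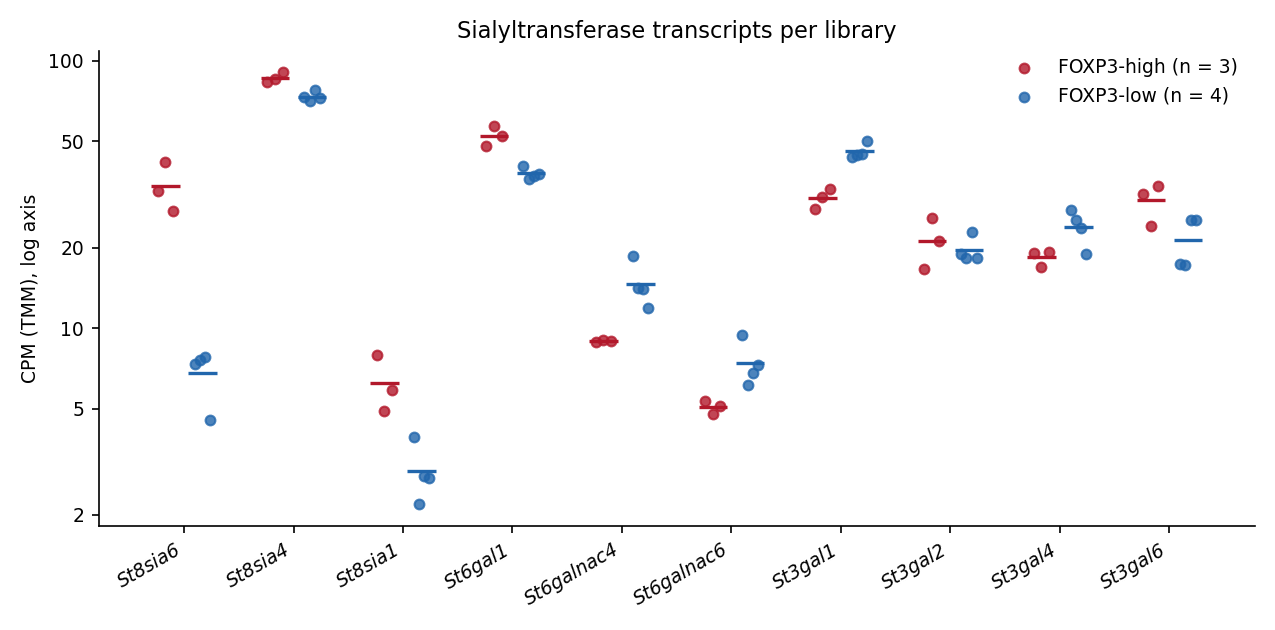
CPM on a log axis for each of the 10 sialyltransferase genes, with 1 point per library, FOXP3-high (n = 3) left of FOXP3-low (n = 4), and a bar at each mean. St8sia6 has the widest gap, with 27.4 to 41.9 CPM in FOXP3-high and 4.52 to 7.78 CPM in FOXP3-low.

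The alpha-2,8 enzymes were all 3 higher in FOXP3-high under TMM. St8sia6 (ENSMUSG00000003418, chromosome 2, 13655832 to 13798875, minus strand, GRCm39) encodes the enzyme that places a further sialic acid on sialylated O-glycans, and its product is a ligand of the mouse receptor Siglec-E. It had 32.6, 41.9 and 27.4 CPM in FOXP3-high replicates 1 to 3, against 7.31, 7.57, 7.78 and 4.52 CPM in FOXP3-low replicates 1 to 4. Every FOXP3-high library lay above every FOXP3-low library, with a log2 fold change of 2.31 ± 0.20, or 4.97-fold. Of all tested genes 29 had a larger log2 fold change toward FOXP3-high, and 4.65% had a larger one when both directions are counted.

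St8sia1 (ENSMUSG00000030283, chromosome 6, 142767271 to 142910178, minus strand), which makes the ganglioside GD3 from GM3, was the lowest member per kb in both groups. It had 7.91, 4.90 and 5.85 CPM in FOXP3-high replicates 1 to 3, against 3.90, 2.20, 2.80 and 2.76 CPM in FOXP3-low replicates 1 to 4. The groups did not overlap, but these values rest on 44 to 92 counts in FOXP3-high and 27 to 48 counts in FOXP3-low, and the log2 fold change was 1.10 ± 0.25. St8sia4 (ENSMUSG00000040710, chromosome 1, 95515407 to 95595260, minus strand), a polysialyltransferase that builds polysialic acid on carriers such as NCAM and neuropilin-2, had 83.1, 85.4 and 90.5 CPM in FOXP3-high replicates 1 to 3 and 73.0, 70.4, 77.7 and 72.6 CPM in FOXP3-low replicates 1 to 4. The St8sia4 groups did not overlap, with a log2 fold change of 0.23 ± 0.061, or 1.18-fold.

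The promoters of these 3 alpha-2,8 genes are shown because the genes lay on the same side under TMM and no other members share their bond. Each sequence runs 5′ to 3′ on the gene's strand from 250 bases before to 50 bases after the RefSeq start, in build GRCm38.p6, which differs from the build of the counts. Capitals mark 3 motifs searched on both strands, with no overlap between hits of different motifs: the forkhead core TGTTTNC, the RUNX core TGTGGT and the SP/KLF core GGGCGG.
St8sia6, chr2:13793471-13793770, minus strand: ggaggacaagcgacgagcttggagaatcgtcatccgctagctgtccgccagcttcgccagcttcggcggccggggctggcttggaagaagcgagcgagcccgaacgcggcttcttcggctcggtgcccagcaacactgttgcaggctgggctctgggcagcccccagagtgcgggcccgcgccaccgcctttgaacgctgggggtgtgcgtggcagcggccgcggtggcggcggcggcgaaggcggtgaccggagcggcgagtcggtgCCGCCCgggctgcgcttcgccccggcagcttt
St8sia1, chr6:142964403-142964702, minus strand: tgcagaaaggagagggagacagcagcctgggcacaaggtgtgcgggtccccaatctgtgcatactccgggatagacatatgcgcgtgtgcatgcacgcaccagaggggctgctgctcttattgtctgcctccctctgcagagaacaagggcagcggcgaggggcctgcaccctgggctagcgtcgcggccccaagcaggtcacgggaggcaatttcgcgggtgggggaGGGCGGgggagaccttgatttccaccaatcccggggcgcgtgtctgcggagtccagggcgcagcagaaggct
St8sia4, chr1:95667545-95667844, minus strand: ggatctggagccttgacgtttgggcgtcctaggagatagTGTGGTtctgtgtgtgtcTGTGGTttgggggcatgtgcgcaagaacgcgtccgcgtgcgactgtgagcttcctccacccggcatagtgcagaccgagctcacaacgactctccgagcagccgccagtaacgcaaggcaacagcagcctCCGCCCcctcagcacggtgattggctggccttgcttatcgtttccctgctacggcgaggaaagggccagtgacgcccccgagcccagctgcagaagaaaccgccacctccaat

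The St8sia6 window was 72.0% G and C with 39 CpG dinucleotides, St8sia1 64.7% with 19 and St8sia4 61.3% with 22, where the median of all 32851 promoters of this length was 52.7% and 7. Each of the 3 windows held 1 SP/KLF core, which 35.7% of all promoters hold. St8sia4 held 2 RUNX cores, present in 16.8% of promoters, and the St8sia6 and St8sia1 windows none. None of the 3 windows held the forkhead core, which 20.5% of all promoters hold. Of the members, 8 had at least 1 promoter entry, 11 entries in all, and among these the forkhead core was found in 1 of the 3 St6gal1 entries and in the St6galnac6 entry.

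St6gal1 (ENSMUSG00000022885, chromosome 16, 23043490 to 23177345, plus strand) encodes the main enzyme of alpha-2,6 sialylation of N-glycans, whose product is a ligand of CD22 on B cells. It had 48.1, 56.8 and 52.3 CPM in FOXP3-high replicates 1 to 3, against 40.6, 36.1, 37.1 and 37.8 CPM in FOXP3-low replicates 1 to 4. The lowest FOXP3-high library lay above the highest FOXP3-low library. The log2 fold change was 0.47 ± 0.079.

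St6galnac4 and St6galnac6 lie next to each other on chromosome 2, 2519 bases apart on the plus strand (32477107 to 32487201 and 32489721 to 32509541, GRCm39). St6galnac4 (ENSMUSG00000079442) adds sialic acid to the GalNAc of already sialylated O-glycans, and St6galnac6 (ENSMUSG00000026811) makes alpha-series gangliosides. St6galnac4 had 8.86, 9.02 and 8.97 CPM in FOXP3-high replicates 1 to 3, against 18.5, 14.2, 14.0 and 11.9 CPM in FOXP3-low replicates 1 to 4 (log2 fold change -0.71 ± 0.16). St6galnac6 had 5.33, 4.79 and 5.10 CPM in FOXP3-high replicates 1 to 3, against 9.43, 6.10, 6.80 and 7.28 CPM in FOXP3-low replicates 1 to 4 (log2 fold change -0.54 ± 0.19). For both neighbours every FOXP3-high library lay below every FOXP3-low library, and FOXP3-low replicate 1 was the highest. The FOXP3-high libraries of St6galnac4 varied by 0.92% (coefficient of variation) on 81 to 103 counts, where Poisson counting alone gives 10.4%, so their SD understates the counting error.

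The alpha-2,3 enzymes were divided. St3gal1 (ENSMUSG00000013846, chromosome 15, 66974724 to 67048679, minus strand), which caps the core 1 O-glycans of T cells and so hides them from peanut agglutinin, had 27.9, 31.1 and 33.0 CPM in FOXP3-high replicates 1 to 3, against 43.7, 44.3, 44.9 and 50.2 CPM in FOXP3-low replicates 1 to 4. The groups did not overlap and the log2 fold change was -0.58 ± 0.086, a level 1.49-fold lower in FOXP3-high. St3gal6 (ENSMUSG00000022747, chromosome 16, 58288488 to 58344532, minus strand), which with St3gal4 caps the chains of selectin ligands, had 31.8, 24.2 and 34.1 CPM in FOXP3-high replicates 1 to 3, against 17.4, 17.2, 25.4 and 25.4 CPM in FOXP3-low replicates 1 to 4. FOXP3-high replicate 2 lay within the FOXP3-low range, and the log2 fold change was 0.49 ± 0.18.

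St3gal4 (ENSMUSG00000032038, chromosome 9, 34957872 to 35030564, minus strand) had 19.1, 16.9 and 19.3 CPM in FOXP3-high replicates 1 to 3, against 27.6, 25.5, 23.8 and 18.9 CPM in FOXP3-low replicates 1 to 4. FOXP3-low replicate 4 lay inside the FOXP3-high range, and the log2 fold change was -0.38 ± 0.13. St3gal4 overlaps 4930581F22Rik on the opposite strand, whose counts came to 68.4% of its own and which stood at 19.4 ± 1.89 CPM in FOXP3-high and 12.3 ± 1.49 CPM in FOXP3-low. No source used here gives the strand setting of the counting, so reads of the pair may not be fully separated. St3gal2 (ENSMUSG00000031749, chromosome 8, 111646554 to 111699112, plus strand), which sialylates gangliosides and core 1 O-glycans, had 16.7, 25.8 and 21.2 CPM in FOXP3-high replicates 1 to 3, against 18.9, 18.2, 22.9 and 18.3 CPM in FOXP3-low replicates 1 to 4. The FOXP3-low values of St3gal2 lay inside the FOXP3-high range, and the log2 fold change was 0.11 ± 0.15, or -0.025 without FOXP3-high replicate 2.

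Per kb of gene length the order of the members differed between the groups. In FOXP3-high libraries St6gal1 was first at 10.7 ± 0.886 CPM per kb and St3gal4 second at 6.30 ± 0.445 CPM per kb, both apart from the next gene. St3gal6, St3gal1, St8sia6, St8sia4 and St3gal2 followed between 4.86 and 4.22 CPM per kb, and no neighbours among these 5 differed beyond the range of their libraries. St6galnac4 (1.38), St6galnac6 (1.05) and St8sia1 (0.666 CPM per kb) came last. In FOXP3-low libraries St3gal4 and St6gal1 led at 8.19 ± 1.27 and 7.71 ± 0.387 CPM per kb with overlapping ranges, and St3gal1 followed at 6.68 ± 0.436. St3gal2, St8sia4 and St3gal6 stood between 3.89 and 3.46 CPM per kb, and each neighbouring pair from St3gal2 down to St6galnac6 overlapped. St8sia6 held rank 5 in FOXP3-high at 4.43 ± 0.958 CPM per kb and rank 9 in FOXP3-low at 0.887 ± 0.1996 CPM per kb.

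The summed level of the 10 members under TMM was 42.3 ± 1.57 CPM per kb in FOXP3-high and 38.6 ± 1.75 CPM per kb in FOXP3-low. This sum moves with the library scaling, so no direction is read from it. T cell identity scaling shifted the median of all genes by -0.48 on the log2 scale. The 3 alpha-2,8 genes took 22.2% ± 1.70 of the summed level in FOXP3-high and 12.6% ± 0.416 in FOXP3-low, and St8sia6 alone took 10.5% ± 2.11 in FOXP3-high and 2.29% ± 0.485 in FOXP3-low. St6gal1 took 25.1% ± 1.25 in FOXP3-high and 19.99% ± 0.746 in FOXP3-low. The 4 alpha-2,3 genes took 46.9% ± 2.39 in FOXP3-high and 57.6% ± 1.56 in FOXP3-low, and the 2 GalNAc enzymes took 5.76% ± 0.315 in FOXP3-high and 9.80% ± 1.40 in FOXP3-low. The libraries of the groups did not overlap in any of these 4 classes. The classes hold members only. St6galnac1 and St6galnac3, GalNAc enzymes that are not members, stood higher in FOXP3-high and are not in the GalNAc share. St6galnac1 had 0.745 to 2.01 CPM per kb in FOXP3-high and 0.102 to 0.679 CPM per kb in FOXP3-low. St6galnac3 had 0.588 to 0.860 CPM per kb in FOXP3-high and 0.298 to 0.552 CPM per kb in FOXP3-low. The member St6galnac4 was at 1.38 CPM per kb in FOXP3-high and 2.26 in FOXP3-low, and St6galnac6 at 1.05 and 1.54. All of these are of a similar scale and go in opposite directions. The lower GalNAc share therefore holds for the 2 members only and is not a fall of all detected GalNAc enzymes. St3gal3 and St3gal5, which did not pass, are likewise not in the alpha-2,3 share. The shares need no library scaling, but they depend on the deposited gene lengths: without division by length the alpha-2,8 genes took 43.2% ± 1.37 in FOXP3-high and 32.8% ± 0.724 in FOXP3-low. St6gal1 then took 17.8% ± 0.934 in FOXP3-high and 14.9% ± 0.621 in FOXP3-low, a difference of 2.90 percentage points in place of 5.15. These shares are of transcripts, not of linkages on the cells.

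**Figure D2:**
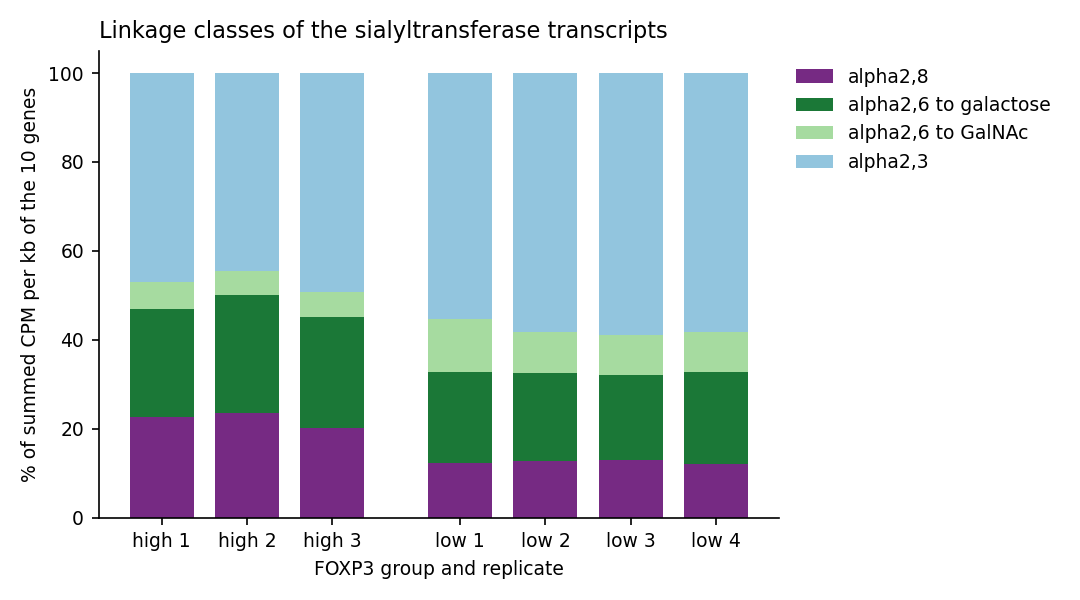
Stacked bars of the share of the 10 genes' summed CPM per kb by the bond their enzymes make, 1 bar per library, with the 3 FOXP3-high bars left of the 4 FOXP3-low bars. The alpha-2,8 share is 20.3% to 23.5% in FOXP3-high and 12.1% to 13.1% in FOXP3-low. The GalNAc class leaves out St6galnac1 and St6galnac3, which are not members and stood higher in FOXP3-high. Its lower share is not a fall of all detected GalNAc enzymes.

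The direction of several members depended on the scaling. When libraries were scaled to the 17 T cell identity markers in place of TMM, the median of all tested genes moved by -0.48 on the log2 scale, and 765 genes passed as higher and 7958 as lower, where TMM gave 3459 and 3898. Under that scaling St8sia6 stayed higher at 1.81 ± 0.20, and St8sia1 was at 0.62 ± 0.28 and no longer past the threshold. St8sia4 turned to -0.25, St6gal1 to -0.019 and St3gal2 to -0.38, and St3gal6 was 0.016, none past the threshold but all above the shifted median of -0.47. St3gal1, St6galnac4, St6galnac6 and St3gal4 lay between -1.19 and -0.85, below that median. Each of the 10 log2 fold changes kept its side of the median of all genes. That could hardly be otherwise, since a change of library scaling moves all genes by nearly the same amount.

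**Figure D3:**
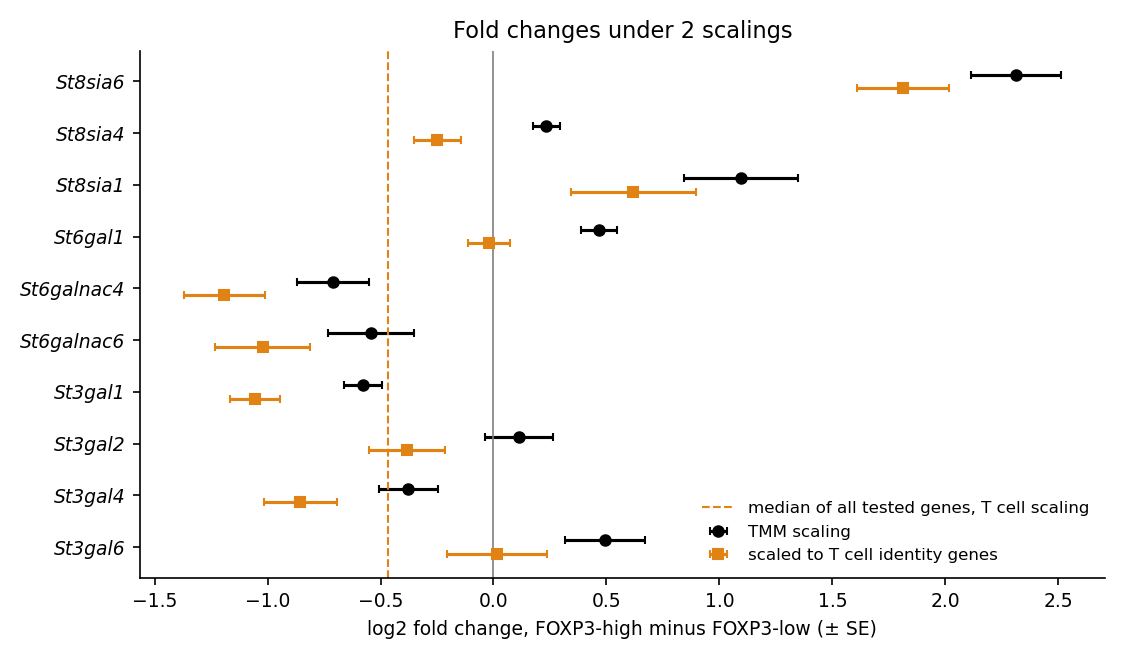
Log2 fold changes (FOXP3-high minus FOXP3-low, with standard errors) of the 10 genes under TMM (circles) and under scaling to T cell identity genes (squares), with the median of all tested genes under the T cell scaling as a dashed line at -0.47. St8sia6 is at 2.31 under TMM and 1.81 under the T cell scaling.

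Some members sat near the threshold. Their calls are given to show what the counts of members rest on, and support nothing, since the members were chosen on this contrast. St3gal4 lost the call without any one of FOXP3-high replicates 1, 2 and 3 and FOXP3-low replicates 1, 2 and 3 (log2 fold change -0.43 to -0.28). St6galnac6 lost it without any one of FOXP3-high replicates 1, 2 and 3 and FOXP3-low replicates 1 and 4 (-0.61 to -0.39), and St3gal6 without FOXP3-high replicate 1 or 3 or FOXP3-low replicate 1 or 2 (0.39 to 0.43).

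Libraries of 1 group differed from each other in several members at once. FOXP3-high replicate 2 was the highest of its group for St8sia6, St3gal2, St6gal1 and, by little, St6galnac4. It was the lowest for St8sia1, St3gal6, St3gal4 and St6galnac6. The same library had the lowest summed endothelial and fibroblast markers of its group, at 72.0 and 20.2 CPM, where the other FOXP3-high libraries had 196 to 345 and 175 to 293 CPM. It also had the lowest melanoma sum of its group (3399 CPM, with 4672 and 4171 CPM in replicates 1 and 3) and the lowest macrophage sum (230.6 CPM), and the highest T cell identity and Treg sums (5197 and 4606 CPM). St8sia1 had the same order over the 3 FOXP3-high libraries as the melanoma sum but not over the 4 FOXP3-low libraries, and its log2 fold change of 1.10 stood beside a median of 1.10 over the 9 melanoma markers. FOXP3-low replicate 4 was the lowest of its group for St8sia6, St3gal4 and St6galnac4 and the highest for St3gal1 and, by little, St3gal6. That library had the lowest macrophage sum of its group at 2176 CPM and the highest melanoma sum at 2508 CPM. The part of these cells in the members' values was not tested.

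Candidates for likeness to St8sia6 were 9639 tested genes whose mean over all libraries reached 5 CPM. These exclude the members and, by name, Gm, LOC and Rik genes, pseudogenes marked -ps, mitochondrial genome genes, and T cell receptor and immunoglobulin segments. The genes most like St8sia6 had the smallest mean absolute difference of log2 CPM over the 7 libraries, after centring each gene on its own mean. They were Gpr15, a homing receptor of colonic T cells, at 0.18, Pde2a, a cyclic nucleotide phosphodiesterase, at 0.23, Cd55, a complement decay factor, at 0.24, Myo3b, an unconventional myosin, at 0.24 and Card6, a caspase recruitment domain protein, at 0.26. Gpr15 had 28.7, 30.1 and 25.7 CPM in FOXP3-high replicates 1 to 3, against 6.18, 6.59, 5.33 and 5.52 CPM in FOXP3-low replicates 1 to 4. FOXP3-high replicate 2 was the highest library for St8sia6 and for all 5 of these genes, which follows largely from how they were picked. Pde2a shares its strand and part of its span with Gm45837, whose counts came to 102% of its own. These genes were picked for likeness to a member, so their fold changes, between 3.47 for Card6 and 4.76 for Gpr15, are not tested here.

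Around the members stand 79 genes in 8 lists, picked by role: the other sialyltransferases and the genes of sialic acid supply and removal, of the glycans that accept it, and of the receptors that read it. Of these, 60 passed the filter on low counts. Among the 60, 12 passed the test as higher in FOXP3-high and 16 as lower (edgeR quasi-likelihood test, adjusted over all genes), and 32 did not pass, against 21.8% and 24.6% of all tested genes. Under T cell identity scaling 1 of the 60 passed as higher and 31 as lower, where 765 and 7958 of all 15838 tested genes did. Under TMM the median log2 fold change of the 60 was 0.030, against 0.012 over all genes.

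**Figure D4:**
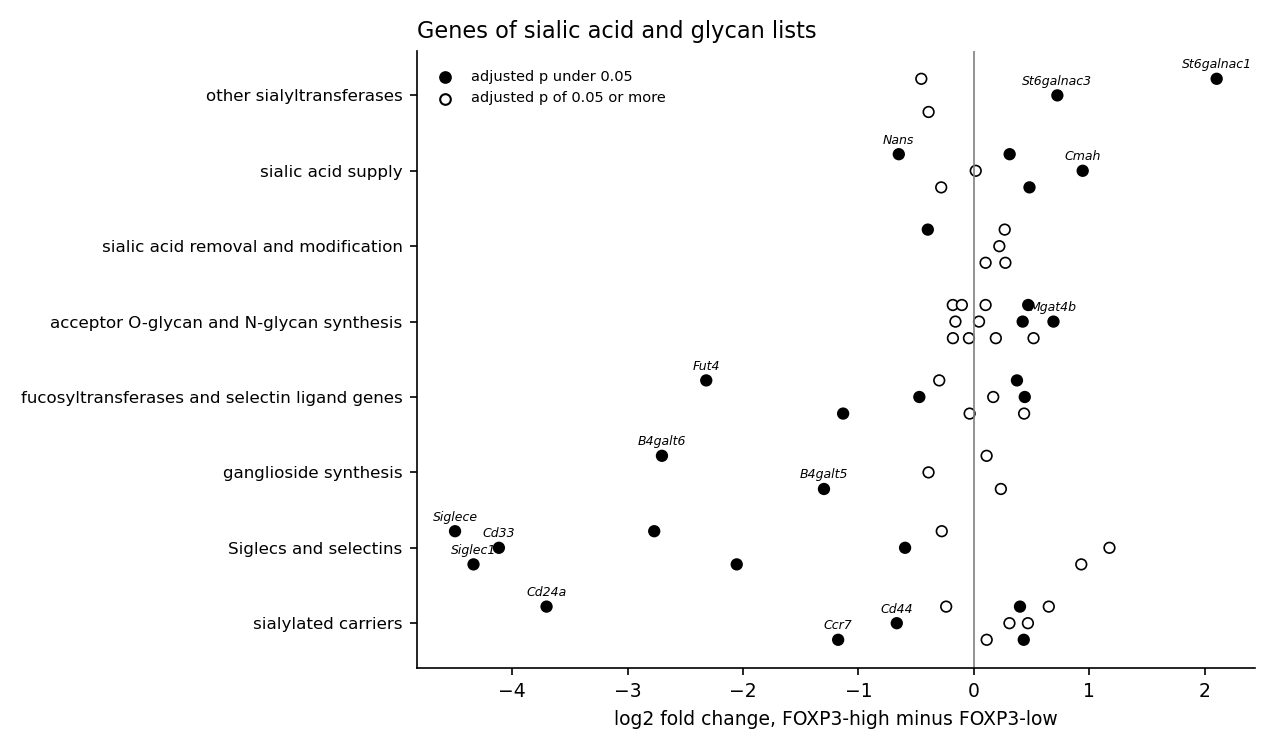
Log2 fold changes (FOXP3-high minus FOXP3-low) of the 60 tested genes in 8 lists, 1 point per gene, filled where the adjusted p was under 0.05, with the larger changes among the named genes labelled. The Siglec genes reach -4.50, and St6galnac1 has the largest increase at 2.10.

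Among the 10 sialyltransferases outside the members, 4 were tested and 2 passed as higher. St6galnac1, the enzyme of the sialyl-Tn antigen, had 4.82, 1.78 and 3.02 CPM in FOXP3-high replicates 1 to 3 and 1.63, 0.244, 0.841 and 0.251 CPM in FOXP3-low replicates 1 to 4 (log2 fold change 2.10 ± 0.60, edgeR adjusted p = 0.0168). St6galnac3, a GalNAc enzyme of gangliosides and O-glycans, had 5.29 to 7.74 CPM in FOXP3-high and 2.68 to 4.96 CPM in FOXP3-low (0.72 ± 0.25, edgeR adjusted p = 0.0361). The groups did not overlap for either gene, but both calls were fragile. That of St6galnac1 was lost without FOXP3-high replicate 1 (1.66, adjusted p = 0.0974) and that of St6galnac3 without FOXP3-high replicate 1 or 2 or FOXP3-low replicate 1 or 3 (0.58 to 0.71), and under T cell scaling neither passed (1.63 and 0.24). St3gal5, which makes GM3, the substrate of St8sia1, was at 6.44 ± 2.67 CPM in FOXP3-high and 8.89 ± 1.77 CPM in FOXP3-low and did not pass, and St3gal3 did not pass either. St6gal2, St8sia3 and St8sia5 had 0 counts in every library, which allows up to 0.0364 CPM (3 counts over the 7 libraries, counting error only).

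On the supply side 3 of 6 genes passed as higher and 1 as lower. Cmah, which converts the sialic acid Neu5Ac into Neu5Gc in mice, rose to 78.8, 82.5 and 61.5 CPM in FOXP3-high replicates 1 to 3, against 37.5, 39.0, 36.3 and 41.6 CPM in FOXP3-low replicates 1 to 4. All FOXP3-high libraries lay above all FOXP3-low libraries (log2 fold change 0.94 ± 0.10, edgeR adjusted p = 6.23e-05), and Cmah was the only 1 of the 60 genes past the threshold as higher under T cell scaling (0.46). Gne, the first and rate-limiting enzyme of sialic acid synthesis, rose 1.40-fold to 18.6 ± 1.80 CPM in FOXP3-high, against 13.3 ± 0.728 CPM in FOXP3-low. Cmas, which makes the donor CMP-sialic acid, was at 53.1 ± 4.47 CPM in FOXP3-high and 42.8 ± 2.53 CPM in FOXP3-low. Nans, the enzyme between them, fell to 82.5 ± 4.36 CPM in FOXP3-high, against 129.5 ± 5.53 CPM in FOXP3-low (log2 fold change -0.65 ± 0.060, edgeR adjusted p = 2.03e-05). Slc35a1, the Golgi transporter of the donor, was at 38.4 ± 1.33 CPM in FOXP3-high and 38.0 ± 3.39 CPM in FOXP3-low and did not pass. The Cmas call was lost without FOXP3-high replicate 1 (0.21, adjusted p = 0.071), and under T cell scaling Gne turned to -0.0018 and Cmas to -0.17. Nans overlaps Trim14 on the opposite strand, whose counts came to 34.4% of its own.

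Of the 5 tested genes of sialic acid removal and modification 1 passed. It was Ctsa, the lysosomal protein that protects the sialidase NEU1, at 54.6 ± 7.19 CPM in FOXP3-high and 72.0 ± 8.04 CPM in FOXP3-low (log2 fold change -0.40 ± 0.11, edgeR adjusted p = 0.0151), and its call was lost without FOXP3-high replicate 3 (-0.30, adjusted p = 0.0521). Ctsa overlaps Pltp on the opposite strand, whose counts came to 15.8% of its own. The sialidase genes Neu1 and Neu3 did not pass.

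Among 12 tested genes that build the N- and O-glycan ends, 3 passed as higher and none as lower. Mgat4b and Mgat5, which add branches to N-glycans, had log2 fold changes of 0.69 ± 0.11 and 0.47 ± 0.11, and B4galt1, which adds the galactose that ST6GAL1 and ST3GAL enzymes cap, one of 0.42 ± 0.10 (edgeR adjusted p = 5.26e-04, 0.00777 and 0.00812). C1galt1, which makes core 1 O-glycans, was at 53.9 ± 4.12 CPM in FOXP3-high and 50.2 ± 3.05 CPM in FOXP3-low and did not pass. Under T cell scaling B4galt1 turned to -0.063 and Mgat5 to -0.012, Mgat4b stood at 0.21 and did not pass, and Mgat5 lost its call without FOXP3-high replicate 1 (0.37, adjusted p = 0.0519).

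Of 9 tested fucosyltransferase and selectin ligand genes 2 passed as higher and 3 as lower. Selplg, which encodes the P-selectin ligand PSGL-1, was at 295 ± 37.9 CPM in FOXP3-high and 218 ± 11.8 CPM in FOXP3-low (log2 fold change 0.44 ± 0.081, edgeR adjusted p = 0.00164), and Tpst2, which sulfates its tyrosines, at 34.3 ± 1.29 CPM in FOXP3-high and 26.5 ± 2.11 CPM in FOXP3-low. Both turned below 0 under T cell scaling, Selplg to -0.047 and Tpst2 to -0.11. Fut4, a fucosyltransferase of sialyl Lewis x common in myeloid cells, fell to 0.395 ± 0.379 CPM in FOXP3-high on 13 counts in all, against 2.09 ± 0.137 CPM in FOXP3-low, and Chst2, a sulfotransferase, to 26.5 ± 0.955 CPM in FOXP3-high, against 36.7 ± 3.40 CPM in FOXP3-low. Tpst1, named after its values were seen, was the third that fell (-1.13 ± 0.40, edgeR adjusted p = 0.0412). Fut7, the fucosyltransferase that completes sialyl Lewis x in T cells, was at 6.86 ± 0.758 CPM in FOXP3-high and 8.42 ± 0.993 CPM in FOXP3-low and did not pass.

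Of 5 tested ganglioside genes, 2 passed, both as lower. They were the lactosylceramide synthases B4galt5, at 28.6 ± 2.73 CPM in FOXP3-high and 70.4 ± 6.27 CPM in FOXP3-low (log2 fold change -1.30 ± 0.096, edgeR adjusted p = 5.17e-06), and B4galt6, at 0.655 ± 0.207 CPM in FOXP3-high and 4.38 ± 1.64 CPM in FOXP3-low. B4galnt1, which competes with St8sia1 for GM3, was at 86.2 ± 10.04 CPM in FOXP3-high and 79.8 ± 5.28 CPM in FOXP3-low and did not pass. All 14 macrophage markers were lower in FOXP3-high too, and their part in the values of B4galt5 and B4galt6 was not tested.

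Of 9 tested Siglec and selectin genes, 6 passed as lower and none as higher. Siglece, which encodes the receptor of the St8sia6 product, had 0.258, 0.223 and 0.378 CPM in FOXP3-high replicates 1 to 3, resting on 9 counts in all, against 6.99, 7.40, 6.66 and 5.86 CPM in FOXP3-low replicates 1 to 4 (log2 fold change -4.50 ± 0.27, edgeR adjusted p = 1.68e-06). Siglec1 and Cd33, further myeloid Siglecs, had log2 fold changes of -4.34 ± 0.30 and -4.12 ± 0.25. These Siglecs moved in the direction of the 14 macrophage markers, whose median log2 fold change was -4.23, and the part of those cells in them was not tested.

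Of the 10 carriers of sialic acid 2 passed as higher and 3 as lower. Nrp1, a surface marker of Treg cells, was at 164 ± 11.04 CPM in FOXP3-high and 122 ± 7.91 CPM in FOXP3-low (log2 fold change 0.43 ± 0.068, edgeR adjusted p = 6.05e-04, and -0.052 under T cell scaling). Ptprc, which encodes CD45 and is named after its values were seen, was the second that rose (0.40 ± 0.066, edgeR adjusted p = 8.74e-04). Under T cell scaling Ptprc did not pass as higher either. Cd44, an adhesion receptor for hyaluronan, fell to 255 ± 4.05 CPM in FOXP3-high, against 405 ± 7.504 CPM in FOXP3-low, and Ccr7, a chemokine receptor that carries polysialic acid on dendritic cells, to 14.5 ± 0.29 CPM in FOXP3-high, against 32.7 ± 3.54 CPM in FOXP3-low. Cd24a, a glycoprotein that Siglec-G binds in mice, had a log2 fold change of -3.70 ± 0.24. Ccr7 is also 1 of the 7 dendritic cell markers, whose median log2 fold change was -2.55, and the medians of the macrophage and neutrophil markers were -4.23 and -3.90; the part of these cells in the values of Cd24a and Ccr7 was not tested. Ncam1 and Nrp2, carriers of the polysialic acid that St8sia4 makes, did not pass, at 2.94 ± 0.546 and 40.5 ± 14.5 CPM in FOXP3-high and 2.38 ± 0.15 and 47.9 ± 10.7 CPM in FOXP3-low.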

How the data were processed

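Bulk mRNA was measured in 3 FOXP3-high and 4 FOXP3-low libraries, grouped and numbered by their titles. The authors deposited whole-number counts per gene, beside the length and coordinates of each. Per the submitters' processing notes fastp 0.23.4, STAR 2.5.3a and featureCounts were used, with builds GRCh38 and GRCm39. Per the labels' protocols a stranded mRNA kit was used. Strand setting, shared reads and duplicate handling: not given in the sources used here. The deposited length, a value in bases, was used for CPM per kb. Unmapped columns of sample values numbered 0. Library totals put 1 CPM at 9.05 to 14.6 counts. Replicates of 1 group differed beyond Poisson noise (chi-square per gene 3.98 to 12.2), so all 7 were kept.

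edgeR 4.0.16 in R 4.3.3 was run with filterByExpr (minimum count 10, total 15; 15838 genes), TMM (factors 0.973 to 1.05) and the quasi-likelihood test without a block, with Benjamini-Hochberg adjustment over all genes and a threshold of 0.05. Each standard error is the size of the log2 fold change divided by the root of F. The test was run on simulated counts modelled on this comparison for 15838 genes, with 200 genes changed at each fold size. It recovered 23% of 1.5-fold, 50% of 2-fold and 86.5% of 4-fold changes, and 14.8%, 4.76% and 7.98% of its calls were false. Far more genes passed in the real comparison (46.5%), so these rates need not hold for it. St6galnac2, on 2 rows, was taken as the longer row.

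The members and lists were chosen with earlier results of these data known. Named genes are the members, up to 4 genes of smallest adjusted p under 0.05 per list with Siglece added, the 5 genes most like St8sia6 (log2 CPM with a prior count of 2), and Foxp3; other genes were named for their role after their values were seen. Alternatives were DESeq2 size factors, upper quartile factors, total counts, T cell identity scaling, no filter, at least 50 counts in 3 libraries, DESeq2 1.42.0, limma-voom (limma 3.58.1), each library left out, both libraries numbered 3 left out, and a replicate block. Shares without gene length were added after seeing the data. Promoters came from RefSeq. The values of 1 gene that the rule names are not reported here.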

Additional observations from a re-analysis of the deposited data

Results flagged for a closer look

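Within the 4 FOXP3-low libraries, 3 of the 34 genes looked at (members and named genes of the lists) had a library whose gap to the others exceeded Dixon's 95% critical value; chance flags about 1 group in 20. St8sia6 was at 4.52 CPM in FOXP3-low replicate 4, the lowest of its group, where the other 3 libraries reached up to 7.78 CPM; without that library its log2 fold change was 2.18. St3gal2 was at 22.9 CPM in FOXP3-low replicate 3, the highest of its group, which began at 18.2 CPM. Cmas was at 46.6 CPM in FOXP3-low replicate 4, above a lowest value of 41.1 CPM.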

How the results depend on the processing

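The log2 fold change of St8sia6 ranged from 1.81 to 2.52 over the 17 alternatives, which is a description, since the members were chosen on this contrast. The count of members called lower in FOXP3-high, 4 under TMM, was 2 with upper quartile factors, total counts or limma-voom and 2 without both libraries numbered 3, and 2 to 3 when 1 library was left out (2 without FOXP3-high replicate 1, 2 or 3 or FOXP3-low replicate 1). The count called higher, 5, fell to 1 with T cell identity scaling and was 4 to 5 when 1 library was left out; St3gal2 turned to -0.38 with T cell scaling and ranged from -0.025 to 0.23 when 1 library was left out, St6gal1 to -0.019 and St8sia4 to -0.25. Of the genes in the 8 lists, 12 were called higher and 16 lower, against 1 and 31 with T cell identity scaling, where Gne (-0.0018), Cmas (-0.17), B4galt1 (-0.063), Mgat5 (-0.012), Tpst2 (-0.11), Selplg (-0.047) and Nrp1 (-0.052) turned; left-out libraries gave 8 to 12 higher, lowest without FOXP3-high replicate 1, and 15 to 18 lower. Counts over all genes were 3459 higher and 3898 lower with TMM, 4122 and 3476 with total counts, 3898 and 3591 with upper quartile factors and 765 and 7958 with T cell scaling. The share of alpha-2,6 to galactose transcripts differed by 5.15 percentage points, or 2.90 without gene length. When 1 library was left out the class differences ranged from 8.95 to 10.6 (alpha-2,8) and 4.46 to 5.67 (alpha-2,6 to galactose). They ranged from -4.32 to -3.35 for the GalNAc class, which holds members only, and from -11.9 to -9.49 for alpha-2,3. With the replicate number as a block 5 members were called higher and 3 lower, since St6galnac6 lost its call (log2 fold change -0.54). FOXP3-low replicate 4 is alone in its block and adds nothing to the group difference in that fit. The effect of the block is therefore not separate from that of leaving this library out. Whether equal numbers pair the libraries was not settled. Correlations of deviations were -0.118, 0.182 and 0.505 for equal numbers 1, 2 and 3, and -0.523 to 0.41 for unequal numbers. All 5 genes most like St8sia6 were the same with total counts. This is no check of the list, since library scaling shifts all genes of a library nearly alike and cancels in the comparison. Depth limits genes of few counts, such as Siglece and Fut4 with 9 and 13 counts over the FOXP3-high libraries. The cause of these shifts was not tested.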
